A study of Arabidopsis thaliana with 48 samples.

Results

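The 5 genes described here were picked from the count table because each was higher in spider mite-infested than in control Arabidopsis thaliana at all 6 harvests of the study. They are AT1G66920, PME3 (AT3G14310), AT3G16530, CYSC1 (AT3G61440) and AT4G24350, which are 5 of the 22252 genes tested and of 33211 features in the table. All 5 passed the filter on low counts. The infested and control levels chose the genes, so the differences between them are given as a description with standard errors and without a test.

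Plants were the wild-type ecotype Columbia (Col-0), and no mutant or transgene was used. Infested plants received 20 female adults of Tetranychus urticae each at an age of 3 weeks, and the control plants had no mites. A cylinder kept the mites on their plants. Aerial parts were taken after 30 min and 24 h and on days 4, 7, 12 and 15, with 4 libraries per time and treatment, 48 in all, and each library came from 4 pooled plants. The labels call these pools biological replicates.

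Spider mites pierce leaf cells and suck out their contents, and plants answer with jasmonic acid signalling, cell wall changes and toxic metabolites. PME3 is a pectin methylesterase, an enzyme that removes methyl groups from wall pectin and so changes its stiffness and its access to wall-degrading enzymes. CYSC1 is the mitochondrial beta-cyanoalanine synthase, which joins cyanide to cysteine. Cyanide is released when ethylene and the indole phytoalexin camalexin are made. AT3G16530 is annotated as a legume lectin family protein, a class of sugar-binding proteins that includes seed lectins toxic to insects. AT1G66920 is annotated as a protein kinase. AT4G24350 belongs to the phosphorylase superfamily, which includes the bark storage proteins of poplar.

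The genes lie apart in the genome. In the RefSeq annotation of TAIR10.1, AT1G66920 lies at chr1:24965134-24967586 on the minus strand, PME3 at chr3:4771833-4775258 (minus), AT3G16530 at chr3:5624326-5625519 (minus), CYSC1 at chr3:22735663-22738131 (plus) and AT4G24350 at chr4:12609373-12611468 (plus). AT3G16530 has a single exon, and CYSC1 has up to 10. The submitters' processing notes name the build TAIR10. The sequences below were located by locus name in TAIR10.1.

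The 300 bases around the annotated transcription start, 250 before it and 50 from it on, are shown for the 4 genes that hold a searched motif there, so that genes chosen for a like response may be compared by the letters at their starts. Capitals mark the W box, TTGACC or TTGACT, and the TGA core, TGACG, each read on both strands, so that GGTCAA and CGTCA are matches on the opposite strand. The marked motifs do not overlap. Each is written 5′ to 3′ on the strand of the gene.
AT1G66920, chr1:24967537-24967836, minus strand: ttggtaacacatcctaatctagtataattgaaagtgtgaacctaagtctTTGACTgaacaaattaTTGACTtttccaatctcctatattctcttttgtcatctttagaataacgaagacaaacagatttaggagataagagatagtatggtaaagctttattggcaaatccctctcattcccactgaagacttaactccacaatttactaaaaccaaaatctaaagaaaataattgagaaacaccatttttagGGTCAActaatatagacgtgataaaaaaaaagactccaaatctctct
AT3G16530, chr3:5625470-5625769, minus strand: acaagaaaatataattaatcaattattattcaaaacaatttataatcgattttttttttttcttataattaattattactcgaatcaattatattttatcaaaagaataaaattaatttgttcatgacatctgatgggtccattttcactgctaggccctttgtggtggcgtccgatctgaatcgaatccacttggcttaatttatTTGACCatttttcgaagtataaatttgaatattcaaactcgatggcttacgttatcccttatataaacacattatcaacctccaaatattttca
CYSC1, chr3:22735413-22735712, plus strand: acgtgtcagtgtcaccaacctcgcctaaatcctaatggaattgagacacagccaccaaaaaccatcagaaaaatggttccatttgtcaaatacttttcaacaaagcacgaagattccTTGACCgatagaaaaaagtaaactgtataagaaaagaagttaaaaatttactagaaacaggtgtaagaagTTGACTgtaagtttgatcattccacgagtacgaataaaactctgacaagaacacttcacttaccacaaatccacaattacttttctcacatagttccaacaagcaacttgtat
AT4G24350, chr4:12609123-12609422, plus strand: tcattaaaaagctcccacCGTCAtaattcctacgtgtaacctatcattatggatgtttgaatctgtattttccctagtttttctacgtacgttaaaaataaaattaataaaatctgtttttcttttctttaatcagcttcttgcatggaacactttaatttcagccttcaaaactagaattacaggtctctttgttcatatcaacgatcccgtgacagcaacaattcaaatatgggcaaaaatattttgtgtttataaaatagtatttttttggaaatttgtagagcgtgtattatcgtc

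A W box, the letters to which WRKY factors are known to bind, stood in 3 of the 5 windows. AT1G66920 held TTGACT at -201 and -185 and TTGACC on the opposite strand at 4, counted from the start. AT3G16530 held TTGACC at -44, and CYSC1 held TTGACC at -133 and TTGACT at -63. AT4G24350 held only the TGA core, on the opposite strand at -232, and the window of PME3 at chr3:4775209-4775508 (minus) held none of the motifs. Over 27443 gene starts of the same length, 32.4% held either W box, 14.2% TTGACC, 21.8% TTGACT and 23.1% the TGA core. The G box CACGTG, present in 7.68%, and the GCC box AGCCGCC, present in 0.794%, were in none of the 5 windows. These are matches of letters only.

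The libraries held 12.5 to 23.4 M counts (median 18.9 M). The widest gap between the groups of a harvest was at 30 min, with 13.7 ± 1.04 M counts in infested and 19.3 ± 1.57 M in control libraries (SD, n = 4). Levels are library-scaled counts per M (CPM), and means ± SD are over the 4 libraries of a group throughout. Tissue was pooled from whole aerial parts, so a lower number of cells of a type and less RNA per cell cannot be told apart. Leaf markers (RBCS1A, CAB1 and CA1) summed to 13400 to 38300 CPM in the group means, and 5 root markers together to 0.213 to 2.16 CPM, with EXPA7 at 0 in all 48 libraries.

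Per kb of exon, the scale on which genes can be set beside each other, CYSC1 was the most abundant, with a mean over control groups of 160 CPM per kb, above 97.8% of 21920 genes. PME3 followed with 55 CPM per kb, AT4G24350 with 17.9 and AT3G16530 with 15. AT1G66920 was the scarcest at 2.28 CPM per kb, above only 24.9% of genes. The means over infested groups were 200, 88.5, 50, 41.1 and 5.64 CPM per kb in the same order of genes.

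The differences between infested and control plants varied in size and in timing among the 5 genes. AT3G16530 had its largest log2 fold change, 2.61 ± 0.35 (SE), at 30 min, and AT1G66920 its largest, 2.14 ± 0.19, at 4 d. PME3 (1.04 ± 0.14), CYSC1 (0.57 ± 0.06) and AT4G24350 (1.85 ± 0.25) peaked at 24 h. CYSC1 moved least, by 1.13- to 1.49-fold over the 6 harvests. All 4 infested libraries lay above all 4 control libraries at 6 harvests for AT4G24350, at 5 for AT1G66920, PME3 and CYSC1, and at 4 for AT3G16530. Over all genes tested, 6.39% to 14.9% were separated in this way at a single harvest. At all 6 harvests 6 genes were, and AT4G24350 was the only one of them among the genes picked.

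**Figure D1:**
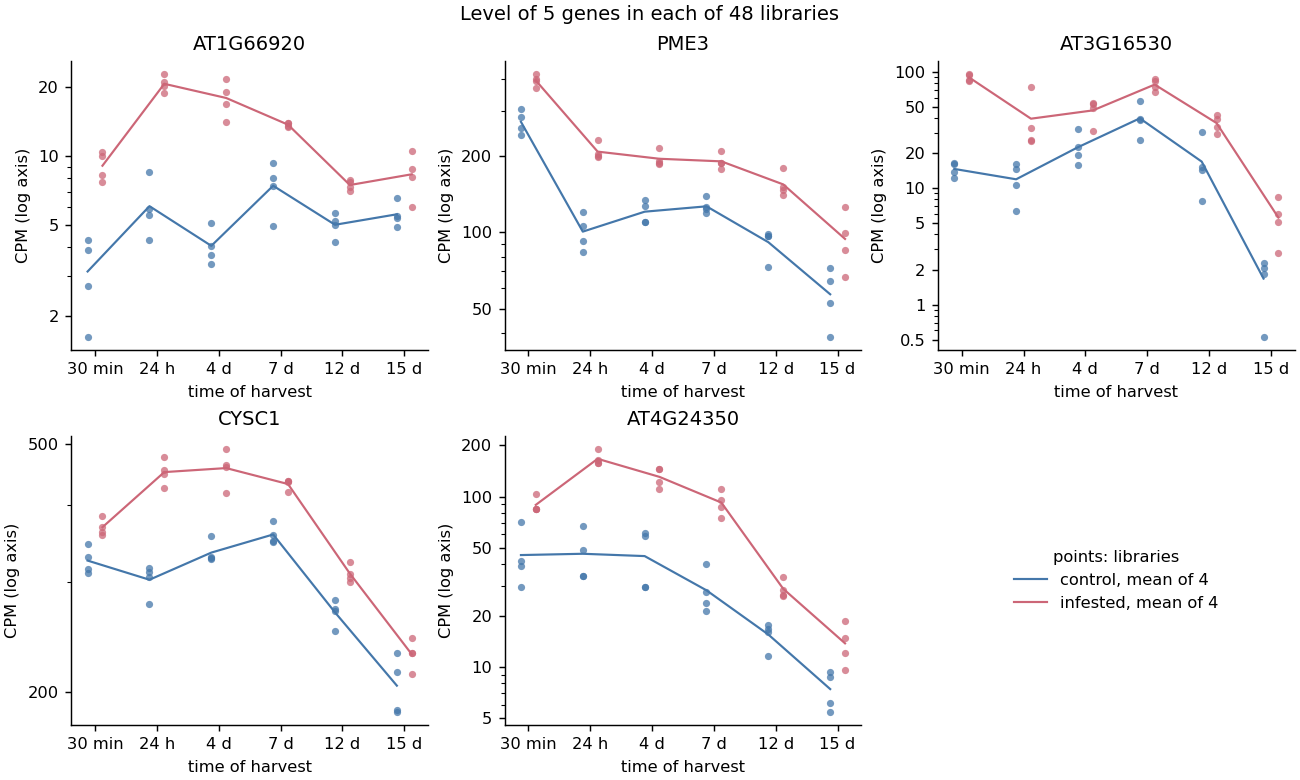
Each panel plots 1 gene, with the time of harvest on the x axis and the level in CPM on a logarithmic y axis. Points are libraries and lines join the means of 4 control (blue) and 4 infested (red) libraries. The infested mean is above the control mean at each of the 6 harvests in each panel, and at 15 d the points of AT1G66920, PME3 and CYSC1 overlap.

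AT1G66920 was the scarcest of the genes, and its infested level was highest from 24 h to 7 d. At 30 min its control libraries held 1.63, 2.72, 3.89 and 4.3 CPM and its infested libraries 10.4, 7.68, 10 and 8.25 CPM. At 24 h the control values were 4.3, 5.86, 5.52 and 8.51 CPM, and the infested values 21, 22.8, 18.8 and 20.2 CPM. The lowest infested library was above the highest control library at both harvests, and the log2 fold changes were 1.54 ± 0.21 and 1.77 ± 0.19. On day 4 the controls read 3.39, 3.7, 4.05 and 5.09 CPM against 16.9, 19, 14.1 and 21.8 CPM with mites, a 4.41-fold difference. By day 7 the controls had 4.96, 9.36, 8.01 and 7.37 CPM and the infested plants 14, 13.9, 13.6 and 13.4 CPM, a log2 fold change of 0.89 ± 0.18. From 4 d to 7 d the log2 fold change thus fell by 1.25 ± 0.26. Later the groups came close. At 12 d the control libraries had 4.99, 5.19, 5.67 and 4.21 CPM and the infested ones 7.31, 7.05, 7.83 and 7.73 CPM. At 15 d they had 5.35, 4.89, 6.55 and 5.5 CPM against 6, 8.08, 8.75 and 10.5 CPM, and 1 infested library lay within the control range. The log2 fold change was 0.58 ± 0.19 at both of these harvests. The counts behind these values ran from 31 to 394 per library.

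PME3 was highest at 30 min in both treatments. Its control libraries then held 257, 306, 240 and 283 CPM and its infested libraries 401, 368, 393 and 418 CPM. At 24 h the control level was 83.4, 106, 120 and 92.1 CPM and the infested level 230, 199, 202 and 198 CPM. The treatments did not overlap, and the log2 fold change went from 0.54 ± 0.14 to 1.04 ± 0.14, a step of 0.50 ± 0.19. At 4 d the control libraries stood at 127, 110, 110 and 134 CPM and the infested ones at 190, 186, 187 and 214 CPM. At 7 d they stood at 125, 123, 119 and 138 CPM and at 187, 208, 177 and 187 CPM. The groups did not overlap at these harvests, with log2 fold changes of 0.69 ± 0.14 and 0.59 ± 0.14. At 12 d the controls fell apart into 3 libraries at 96.6, 96.8 and 98.3 CPM and 1 at 73.1 CPM, against 151, 146, 140 and 179 CPM with mites. At 15 d the control values of 63.9, 52.5, 72.4 and 38.8 CPM met the infested values of 99.1, 125, 66.8 and 84.9 CPM, of which 1 lay below the highest control. The log2 fold changes of these late harvests were 0.76 ± 0.14 and 0.72 ± 0.14, so that the difference of PME3 stayed between 1.45- and 2.06-fold throughout.

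AT3G16530 showed the widest difference at the first harvest. After 30 min its control libraries held 13.8, 12, 16.5 and 16 CPM and its infested libraries 83.5, 84.3, 94.1 and 95.2 CPM. The infested plants were thus 6.12-fold higher at the harvest with the shallower infested libraries, whose part in the result was not tested. After 24 h the controls held 6.37, 14.7, 16 and 10.6 CPM and the infested plants 33, 73.7, 25.3 and 26 CPM. A single infested library made the 24 h mean of 39.5 ± 23.1 CPM, and without that library (replicate 2) the log2 fold change was 1.24 in place of 1.73 ± 0.35. On day 4 the control values were 22.7, 19.4, 15.7 and 32.1 CPM and the infested values 53.7, 48.9, 31.1 and 52.4 CPM. On day 7 they were 25.8, 38.7, 55.6 and 39 CPM against 83.9, 86.5, 66.4 and 73.4 CPM. The treatments overlapped at 4 d and not at 7 d, with log2 fold changes of 1.05 ± 0.33 and 0.96 ± 0.32. On day 12 control libraries of 14.3, 30, 15 and 7.75 CPM overlapped infested libraries of 42.7, 33.8, 29.1 and 39.4 CPM. Leaving out the control library at 30 CPM moved the log2 fold change of day 12 from 1.10 ± 0.33 to 1.55. On day 15 the gene was near the bottom of its range in both treatments, at 1.82, 2.27, 2.07 and 0.532 CPM without mites and 6.05, 8.46, 2.76 and 5.09 CPM with them. The log2 fold change there was 1.74 ± 0.47, on counts of 12 to 177 per library.

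CYSC1 was the most abundant and the least variable of the genes. At 30 min the control libraries read 311, 315, 329 and 346 CPM and the infested libraries 358, 362, 368 and 384 CPM. At 24 h they read 277, 317, 306 and 312 CPM and 477, 455, 425 and 448 CPM. The difference thus went from 1.13- to 1.49-fold, a step of 0.40 ± 0.09 on the log2 scale. At 4 d the control values were 328, 329, 327 and 356 CPM, and the infested values were 460, 463, 418 and 491 CPM. At 7 d the control values were 348, 377, 358 and 350 CPM, and the infested values were 419, 436, 437 and 435 CPM. The log2 fold change was 0.45 ± 0.06 at 4 d and 0.27 ± 0.06 at 7 d. At 12 d controls at 251, 281, 272 and 270 CPM faced infested libraries at 305, 301, 310 and 324 CPM. At 15 d controls at 215, 186, 231 and 187 CPM faced 231, 244, 214 and 231 CPM in infested plants. Only at 15 d did the treatments overlap, with means of 205 ± 21.9 and 230 ± 12 CPM and a log2 fold change of 0.17 ± 0.06.

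AT4G24350 was the only one of the 5 genes whose treatments did not overlap at any harvest. At 30 min its control libraries held 42.1, 70.7, 39.1 and 29.6 CPM and its infested libraries 104, 84.4, 85 and 84.7 CPM. At 24 h the controls were at 34.3, 67.6, 48.4 and 34.4 CPM, and the infested plants at 190, 157, 157 and 164 CPM. Between these harvests the log2 fold change went from 0.98 ± 0.25 to 1.85 ± 0.25, a step of 0.88 ± 0.35. At 4 d the 4 control libraries fell into 2 pairs, 61.1 and 59 CPM and 29.5 and 29.4 CPM, and the infested libraries held 145, 145, 111 and 122 CPM. At 7 d the controls held 40.2, 23.6, 21.2 and 27.6 CPM and the infested plants 111, 95.9, 87.5 and 75.1 CPM. The log2 fold changes of 1.55 ± 0.25 and 1.71 ± 0.25 were close to that of 24 h. At 12 d the values were 17.7, 16.7, 16 and 11.5 CPM without and 28.4, 26.1, 26.6 and 33.9 CPM with mites. At 15 d they were 8.73, 6.11, 9.28 and 5.45 CPM without and 14.8, 18.5, 12 and 9.63 CPM with mites. The log2 fold change was 0.89 at both harvests, with an SE of 0.26 and 0.28, after a step of -0.82 ± 0.36 from 7 d to 12 d.

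**Figure D2:**
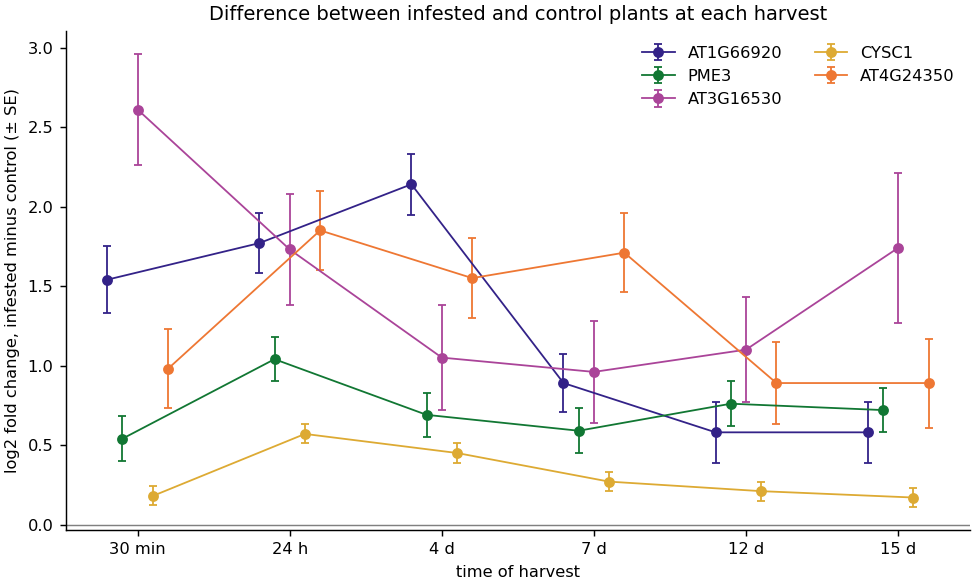
The x axis gives the time of harvest and the y axis the log2 fold change of infested against control plants, with bars of 1 SE from the edgeR fit, for each of the 5 genes. The values lie above 0 at every harvest, which the choice of the genes fixed, and range from 0.17 (CYSC1, 15 d) to 2.61 (AT3G16530, 30 min).

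The genes were picked as higher in infested plants at each harvest. In the edgeR fit used here each of the 5 also had an adjusted p under 0.05 at every harvest. Being called higher at every harvest in this way is named the rule below. Those p-values support nothing here. Over all genes tested, 13.3% were called higher at 30 min, 13.0% at 24 h, 8.68% at 4 d, 6.16% at 7 d, 7.78% at 12 d and 8.67% at 15 d. All 4 infested libraries lay above all 4 controls for 14.9%, 13.9%, 12.5%, 7.4%, 8.26% and 6.39% of genes at these harvests. Exactly 6 genes were called higher at all 6 harvests, and 916 had a log2 fold change above 0 at all of them. The sixth gene called was GPRI1 (AT2G20570), a GOLDEN2-like regulator of chloroplast development, with log2 fold changes of 0.34 to 0.72. GPRI1 met the rule but was not among the 5 genes picked. The highest adjusted p of a gene over the harvests placed CYSC1 just inside the threshold at 0.049 (15 d), after AT3G16530 at 0.039 (7 d), AT1G66920 at 0.031 (12 d), AT4G24350 at 0.021 (15 d) and PME3 at 0.0024 (30 min). Just outside lay the lipase-family gene AT2G03980 and the cation exchanger CHX16, both at 0.054, and the chlorophyllase CLH1 at 0.058. How many of the genes met the rule moved with the scaling and the model. All 5 met it with DESeq2's test or its size factors, PME3 and AT4G24350 with library totals alone as the scale, all but AT3G16530 and CYSC1 without the low-count filter, and only AT4G24350 when each harvest was fitted by itself.

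The harvests were not compared when the genes were chosen, so the changes with time were tested. In control plants 4 of the 5 genes fell from 30 min to 15 d. AT3G16530 fell from 14.6 ± 1.97 to 1.67 ± 0.782 CPM, a log2 change of -3.13 ± 0.44 (adjusted p = 9.3e-08). On the same scale AT4G24350 fell by 2.62 ± 0.27 (adjusted p = 1.1e-10), PME3 by 2.25 ± 0.14 (adjusted p = 1.3e-17) and CYSC1 by 0.67 ± 0.06 (adjusted p = 9.4e-13). AT1G66920 went the other way, from 3.13 ± 1.21 to 5.57 ± 0.7 CPM (log2 change 0.84 ± 0.21, adjusted p = 0.00041). The 5 of 5 genes called stand beside 64.9% of all genes tested, so calls at this distance in time were common.

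In infested plants the same 4 genes fell from 30 min to 15 d, among 63.8% of all genes called. The log2 changes were -4.0 ± 0.38 for AT3G16530 (adjusted p = 1e-11), -2.70 ± 0.27 for AT4G24350 (adjusted p = 2.3e-11), -2.07 ± 0.14 for PME3 (adjusted p = 1.5e-16) and -0.68 ± 0.06 for CYSC1 (adjusted p = 7.7e-13). AT1G66920 was at 9.08 ± 1.32 CPM at the start and 8.32 ± 1.84 CPM at the end (log2 change -0.13 ± 0.19, adjusted p = 0.57), and its change was 0.07 ± 0.19 with library totals alone as the scale, which moved the median of all genes from 0.04 to 0.24.

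Over the first day AT1G66920 and PME3 were called in both treatments, and the other 3 genes in infested plants only. In infested plants all 5 genes changed between 30 min and 24 h, where 51.1% of all genes were called. AT1G66920 rose by 1.19 ± 0.18 on the log2 scale (adjusted p = 5.1e-07), AT4G24350 by 0.90 ± 0.24 (adjusted p = 0.0019) and CYSC1 by 0.29 ± 0.06 (adjusted p = 9.2e-05). AT3G16530 fell by 1.18 ± 0.32 (adjusted p = 0.0024) and PME3 fell by 0.93 ± 0.14 (adjusted p = 2.2e-07). In control plants, where 43.5% of all genes were called, AT1G66920 rose by 0.95 ± 0.21 (adjusted p = 0.00016) and PME3 fell by 1.44 ± 0.14 (adjusted p = 1.4e-11). The other 3 did not pass the test there, with log2 changes of -0.29 ± 0.35 (AT3G16530), -0.10 ± 0.06 (CYSC1) and 0.02 ± 0.25 (AT4G24350).

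Among 9 clock genes, which read the time of day, 2 were called higher and 6 lower from 30 min to 24 h in control plants, and 3 and 6 in infested plants. The hour of each harvest is not given in the sources used here. Within a harvest the summed clock genes were lower in infested plants at 24 h, with 403 to 443 CPM against 532 to 586 CPM in controls. The sums did not overlap at 4 d (468 to 478 against 539 to 572 CPM) or 7 d (467 to 498 against 534 to 601 CPM) either. At 30 min, 12 d and 15 d they overlapped. The part of the time of day in the first-day changes, and in the differences between treatments, was not tested.

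From 24 h to 7 d few of the genes changed. From 24 h to 4 d none of the 5 was called by edgeR in either treatment (3 at an unadjusted p under 0.05 in controls and 0 in infested plants, and 1 and 0 by DESeq2), where 9.42% of all genes were called in controls and 5.60% in infested plants. From 4 d to 7 d, where 9.79% and 5.20% were called, AT1G66920 rose in controls from 4.05 ± 0.738 to 7.43 ± 1.84 CPM (log2 change 0.87 ± 0.20, adjusted p = 0.003), and none was called in infested plants (3 at an unadjusted p under 0.05, 0 by DESeq2). AT4G24350 in controls was near the threshold at 7 d (log2 change -0.67 ± 0.25, adjusted p = 0.084), and passed it at 0.046 without control 4 d replicate 2 or 3 and at 0.024 without control 7 d replicate 1. AT1G66920 in controls from 24 h to 4 d (-0.57 ± 0.20, adjusted p = 0.066) passed at 0.028 without control 24 h replicate 1 and at 0.04 without control 4 d replicate 4. Over all alternatives these p-values ran from 0.024 to 0.28 and from 0.028 to 0.35.

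After 7 d most of the genes fell in both treatments. From 7 d to 12 d all 5 were called lower in controls, where 37.8% of all genes were called, with log2 changes of -1.23 ± 0.33 for AT3G16530 (adjusted p = 0.0032), -0.86 ± 0.26 for AT4G24350 (adjusted p = 0.007), -0.56 ± 0.19 for AT1G66920 (adjusted p = 0.017), -0.47 ± 0.14 for PME3 (adjusted p = 0.0058) and -0.42 ± 0.06 for CYSC1 (adjusted p = 5e-07). AT4G24350 lost this call without control 7 d replicate 1 (adjusted p = 0.06). AT1G66920 lost it without control 7 d replicate 2 (adjusted p = 0.096) or control 12 d replicate 4 (adjusted p = 0.068). Over all alternatives the p-values of these 2 genes ran from 0.0039 to 0.06 and from 0.0026 to 0.096. In infested plants, where 23.0% of all genes were called, AT4G24350 fell by 1.68 ± 0.25 (adjusted p = 2.5e-06), AT3G16530 by 1.10 ± 0.32 (adjusted p = 0.011), AT1G66920 by 0.88 ± 0.18 (adjusted p = 0.00028) and CYSC1 by 0.48 ± 0.06 (adjusted p = 7.5e-08). PME3 did not pass (-0.30 ± 0.14, adjusted p = 0.12). With library totals alone as the scale the median of all genes moved from 0.01 to 0.17 in controls and from 0.01 to 0.14 in infested plants, and AT1G66920 and PME3 in controls then changed by -0.41 ± 0.19 (adjusted p = 0.085) and -0.31 ± 0.13 (adjusted p = 0.059).

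From 12 d to 15 d the same 4 genes, all but AT1G66920, were called lower in controls (34.4% of all genes called) and in infested plants (30.9%). AT3G16530 moved most, by -3.35 ± 0.44 in controls (adjusted p = 2.9e-07) and -2.70 ± 0.37 in infested plants (adjusted p = 5.8e-07). The log2 changes in controls and infested plants were -1.06 ± 0.28 and -1.07 ± 0.26 for AT4G24350, -0.68 ± 0.14 and -0.72 ± 0.14 for PME3, and -0.39 ± 0.06 and -0.43 ± 0.06 for CYSC1, all with an adjusted p of at most 0.0026. AT1G66920 changed by 0.15 ± 0.19 (adjusted p = 0.58) and 0.16 ± 0.18 (adjusted p = 0.56).

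**Figure D3:**
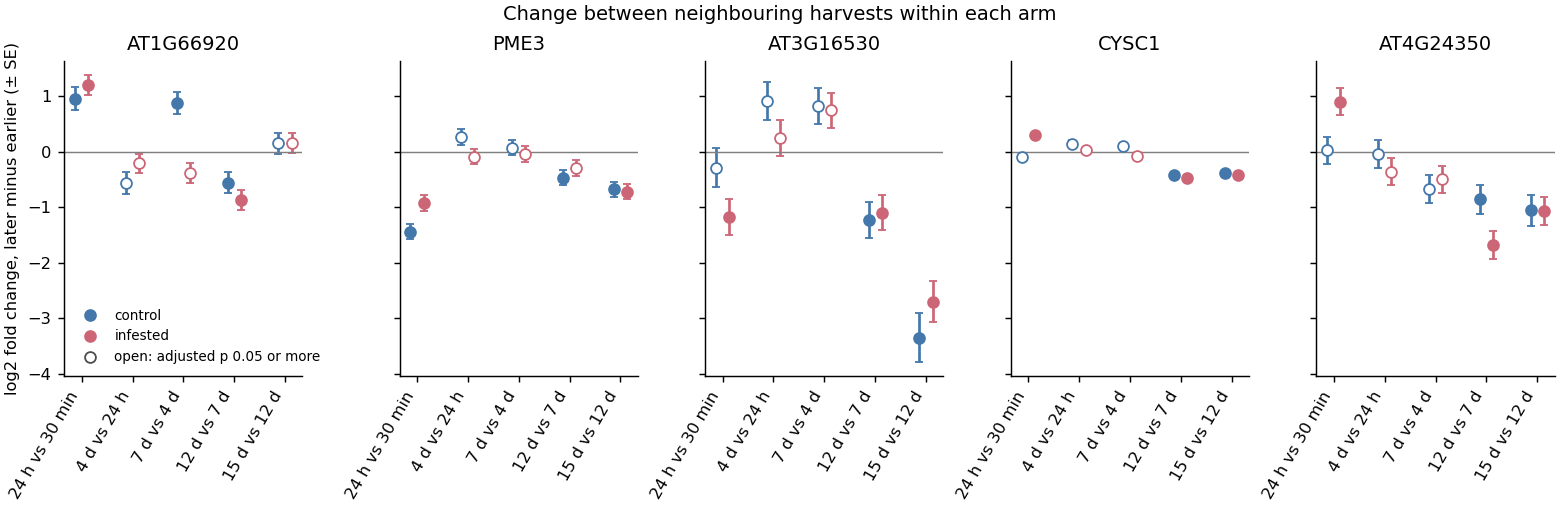
Each panel plots 1 gene, with the pairs of neighbouring harvests on the x axis and the log2 change of the later against the earlier harvest on the y axis, with bars of 1 SE. Filled points passed an adjusted p of 0.05 in edgeR's test, blue for control and red for infested plants. The points from 7 d on lie below 0 in both treatments, except AT1G66920 from 12 d to 15 d.

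The late falls went with changes in organ markers. The summed leaf markers went from 38200 CPM at 30 min (36300 to 40600) to 20600 at 12 d and 13400 at 15 d (11100 to 16600) in controls, and all 3 were called lower from 7 d to 12 d and from 12 d to 15 d in both treatments. Over the same span the 3 flower markers AP3, PI and AG summed to 1.09 CPM at 30 min, 45.6 at 12 d and 65.3 at 15 d in controls, and the 3 cellulose synthases of secondary walls, CESA4, IRX3 and IRX1, to 62.3, 878 and 1630 CPM. In infested plants at 12 d and 15 d the leaf markers summed to 28400 and 20100 CPM, and 1 and 3 of the 3 were called higher than in controls of the same day. Their flower markers summed to 32.7 and 52.1 CPM, with 1 of 3 called lower at 12 d and none at 15 d, where the sums overlapped (43.6 to 56.8 and, in controls, 52.3 to 71.7 CPM). Their secondary wall genes summed to 326 and 1250 CPM, with 3 and 1 of 3 called lower. The part of tissue make-up in the falls with time, and in the higher infested levels of the 5 genes at 12 d and 15 d, was not tested. At earlier harvests too the markers were not level. The leaf sum was 37400 CPM in controls and 31200 CPM in infested plants at 24 h, with 1 of 3 markers called lower, and 38300 and 35000 CPM at 4 d, again with 1 called lower. The flower sum of controls went to 5.09 CPM at 4 d and 12 CPM at 7 d, while the secondary wall sum stayed at 62.3 to 74.4 CPM up to 7 d.

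**Figure D4:**
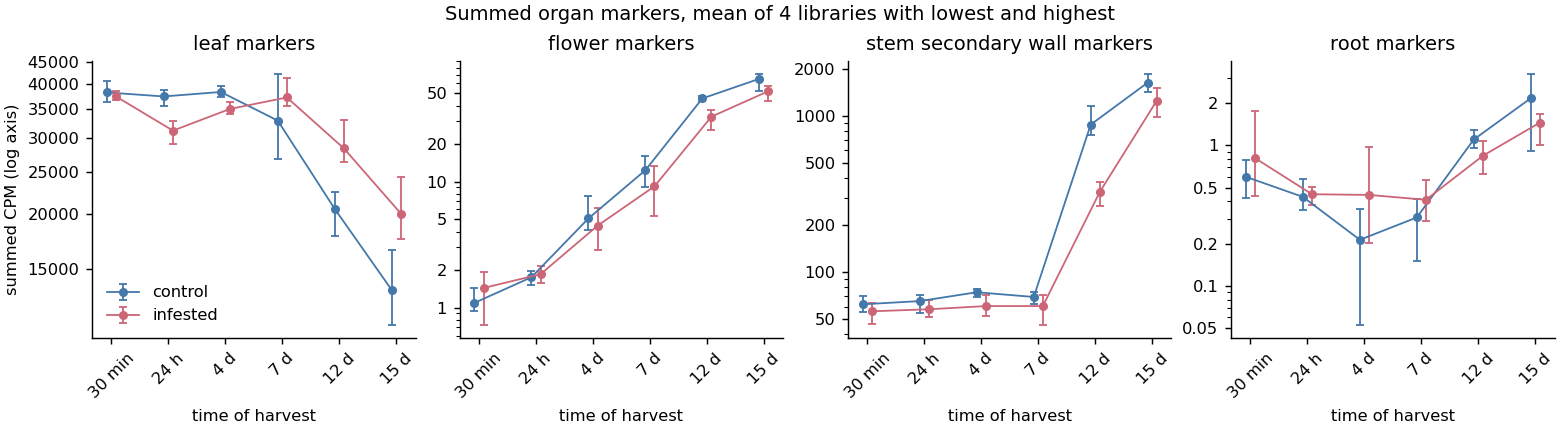
The x axes give the time of harvest and the logarithmic y axes the summed CPM of 3 leaf, 3 flower, 3 stem secondary wall and 5 root marker genes. Points are means of 4 libraries and bars span the lowest to the highest library, for control (blue) and infested (red) plants. Leaf markers fall and secondary wall markers rise after 7 d, and the means of the flower markers rise from harvest to harvest. The means of the root markers stay between 0.213 and 2.16 CPM.

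AT1G66920 was the least like the other 4 genes in its course. Over the 12 group means of log2 CPM, which share libraries and depth between genes, Pearson's r was highest between CYSC1 and AT4G24350 (0.95) and lowest between AT1G66920 and PME3 (0.30). The 6 pairs without AT1G66920 had r of 0.74 to 0.95, and its own 4 pairs 0.30 to 0.62. The 12 means hold the infested and control levels that chose the genes, which favours a positive r between them. The r values here are thus a description only. AT1G66920 was most like the kinase gene AT5G11410 (r = 0.95), the chitinase gene AT2G43620 (0.94) and the leucine-rich repeat kinase gene AT1G51890 (0.93). PME3 was most like the oxygenase gene AT5G20400 and the DNA-binding protein gene AT4G32800 (0.97 each) and the beta-glucosidase BGLU16 (0.96). AT3G16530 was most like RIN4 (0.97), a guarded regulator of immunity, and the GPI-anchored glycoprotein gene AT5G19250 (0.96), and then AT3G16525 (0.94), which lies on the opposite strand of AT3G16530 itself. For CYSC1 the closest were DIN11 and NIMIN-3 (0.96 each) and the TRAF-like gene AT5G26260 (0.95). For AT4G24350 they were the endoribonuclease-family gene AT3G20390, MYB34, a regulator of indole glucosinolate synthesis, and the lipase gene AT1G54010 (0.98 each). AT4G24350 had 136 genes with r over 0.9 and AT1G66920 had 11.

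Overlapping and similar genes limit the counts of the 5 genes. AT3G16525 shares 289 bases, 24% of the exons of AT3G16530, and held 0 to 38 counts per library. AT4G07255 and AT4G24370 share 330 and 73 bases with AT4G24350 on the opposite strand and held 0 to 41 and 88 to 277 counts. Whether strand was used in counting is not given in the sources used here, so such reads cannot be told apart. The closest other transcript matched AT1G66920 at 92.3% over 934 of 2284 bases (AT1G66910), AT3G16530 at 84.0% over 1152 of 1194 bases (AT3G15356), AT4G24350 at 90.3% over 701 of 1570 bases (AT4G24340), PME3 at 77.2% over 1808 of 2323 bases (PME2) and CYSC1 at 67.6% over 893 of 1652 bases (OASC). The levels of AT1G66920, AT3G16530 and AT4G24350 are uncertain to that extent.

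The relatives and pathway partners of the 5 genes were not used in choosing them and were tested for infested against control plants. Over all genes tested, 9.71%, 10.2%, 7.68%, 7.59%, 8.30% and 9.68% were called lower at the 6 harvests in order of time, beside the shares called higher above. The median log2 fold change of all genes lay between -0.02 and 0.01 at each harvest. With library totals alone as the scale, more genes were lower than higher, at 30 min 2735 against 2506 (2160 against 2956 with the trimmed mean), at 7 d 2138 against 955 (1688 against 1371), at 12 d 2872 against 1003 (1847 against 1731) and at 15 d 2823 against 1351 (2154 against 1930).

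Pectin methylesterases other than PME3 rose more often than they fell up to 7 d. Of 22 tested, 6, 7, 7 and 5 were higher at 30 min, 24 h, 4 d and 7 d and 1, 2 and 1 lower at the first 3 of these harvests, with list medians of 0.17 to 0.22 on the log2 scale. PMEPCRA rose from 53.2 ± 21.7 to 198 ± 26.8 CPM at 24 h (log2 fold change 1.89 ± 0.24, adjusted p = 1.1e-07). PME2, the closest relative of PME3 in sequence, rose from 2.58 ± 1.17 to 14.3 ± 3.79 CPM at 4 d (log2 fold change 2.47 ± 0.28, adjusted p = 8.5e-09). PME61 rose at 24 h, 4 d and 7 d by log2 fold changes of 0.57, 0.83 and 0.50 (SE 0.1 each, adjusted p at most 0.00023), and was lower at 12 d (-0.27 ± 0.09, adjusted p = 0.039), a call lost without control replicate 1, 3 or 4 or infested replicate 1, 3 or 4 of that harvest (adjusted p of 0.063 to 0.13). At 15 d it was higher (0.39 ± 0.09, adjusted p = 0.0024, and 0.092 in the fit of that harvest alone). The 5 higher at 7 d became 3 without control 7 d replicate 3 or infested 7 d replicate 2 or 4. At 12 d the counts were 2 higher and 3 lower, the latter becoming 1 without control replicate 1 or 4 or infested replicate 1, 3 or 4 of that harvest. At 15 d they were 4 higher and 2 lower, and the 4 became 2 without control replicate 2 and 1 without control replicate 4 or infested replicate 1 or 2.

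Inhibitors of pectin methylesterases, which bind and block these enzymes, were called at every harvest. Of 8 tested, 1 to 3 were higher at each harvest and at most 2 lower. At 24 h 1 was higher and 2 lower, where 13.0% of all genes were called higher and 10.2% lower. At 12 d 1 was higher and 1 lower, where the shares were 7.78% and 8.30%. AT5G62360 rose at 30 min from 10.8 ± 10.5 to 52.8 ± 11.5 CPM (2.28 ± 0.33 on the log2 scale, adjusted p = 8.8e-07) and at 24 h from 0.51 ± 0.24 to 5.31 ± 2.04 CPM (3.36 ± 0.49, adjusted p = 1.1e-06). AT3G47380 rose at 30 min, 4 d and 12 d by log2 fold changes of 0.82 ± 0.18, 0.90 ± 0.18 and 1.28 ± 0.23 (adjusted p at most 0.00048). AT1G62770 was lower at 24 h (-0.87 ± 0.27, adjusted p = 0.015, and 0.1 and 0.098 without control replicate 1 or infested replicate 2) and rose at 4 d (1.01 ± 0.23, adjusted p = 0.0013).

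Enzymes of cysteine synthesis and cyanide disposal had their most calls at 15 d. Of 8 relatives of CYSC1 and the nitrilase NIT4, 9 genes in all, 1 or 2 were higher up to 12 d and 4 at 15 d (8.67% of all genes), and at most 2 lower, with list medians of -0.05 to 0.23. The cytosolic cysteine synthase OASA1 rose at 24 h from 319 ± 24 to 441 ± 14.9 CPM (0.47 ± 0.06 on the log2 scale, adjusted p = 3.2e-08) and at 4 d (0.30 ± 0.06, adjusted p = 0.00014). The mitochondrial OASC rose at 24 h from 45.9 ± 9.26 to 87.1 ± 6.64 CPM (0.92 ± 0.13, adjusted p = 7.9e-07). It was also called higher at 15 d. That call was lost without control replicate 2 (adjusted p = 0.088) or 4 (0.11) or infested replicate 1 (0.066). It was lost too in the fit of that harvest alone (0.12). NIT4, which acts on the product of CYSC1, did not pass the test at any harvest, with log2 fold changes between -0.47 and 0.24. The lowest, at 12 d (adjusted p = 0.059), passed with library totals alone as the scale (0.033), with only the libraries compared (0.042) and without control 12 d replicate 2 (0.036), while over all alternatives its adjusted p ran from 0.033 to 0.2. Its level was 3.38 ± 0.242 CPM in controls and 3.26 ± 0.169 CPM in infested plants at 30 min, and 24.8 ± 1.85 and 29.2 ± 3.73 CPM at 15 d.

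Genes of synthesis steps that release cyanide were higher early. Of 7 tested, 4, 3 and 3 were called higher at 30 min, 24 h and 4 d, with list medians of 1.26, 0.60 and 0.70, and 1 was lower at 24 h and at 4 d. The 3 higher at 4 d became 1 without control 4 d replicate 3 or infested 4 d replicate 2. CYP71A12, a cytochrome P450 of indole metabolism, rose at 24 h from 0.731 ± 0.127 to 4.24 ± 1.78 CPM (2.52 ± 0.45, adjusted p = 3e-05) and at 4 d (2.82 ± 0.47, adjusted p = 1.5e-05). The camalexin enzyme CYP71A13 rose at 24 h from 0.0133 ± 0.0265 to 3.47 ± 4.86 CPM (adjusted p = 0.00024), a near-absent level in controls with a wide spread in infested plants. At 12 d it was lower, with 3.88 ± 5.6 CPM in controls and 0.455 ± 0.223 CPM in infested plants (log2 fold change -3.08 ± 0.9, adjusted p = 0.014), a call lost without control 12 d replicate 2 (-1.35, adjusted p = 0.32) and in the fit of that harvest alone (adjusted p = 0.19). These 2 genes are close copies, so their counts are uncertain.

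Legume lectin genes other than AT3G16530 were called at about the share of all genes. Of 7 tested, 1 and 2 were higher at 30 min and 24 h, and 1 was lower at each of 30 min, 4 d, 7 d and 12 d. Its closest relative in sequence, AT3G15356, rose at 30 min from 26.3 ± 3.24 to 86.4 ± 17.1 CPM (1.72 ± 0.22, adjusted p = 6.4e-08) and at 24 h (1.22 ± 0.23, adjusted p = 7e-05), and had log2 fold changes of -0.03 to 0.48 afterwards that did not pass. AT1G53080 fell at 4 d, 7 d and 12 d, and was at 2.18 ± 0.723 CPM in controls and 0.328 ± 0.142 CPM in infested plants at 7 d (log2 fold change -2.71 ± 0.39, adjusted p = 1.7e-06).

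Genes of chitin perception and chitinases, which act on the polymer of mite cuticle and fungal walls, rose early and then parted. Of 10 tested, 6, 6 and 4 were higher at 30 min, 24 h and 4 d and 1 lower at 4 d, while 3 were higher and 4 lower at 7 d. The 3 became 1 without infested 7 d replicate 3. The chitin receptor kinase LYK5 rose at 30 min and 24 h (1.37 ± 0.19 and 1.45 ± 0.2, adjusted p at most 2.6e-07) and was lower from 4 d on, with 6.33 ± 1.33 against 31.6 ± 7.92 CPM in controls at 7 d (-2.32 ± 0.18, adjusted p = 3.5e-12). The chitinase gene AT2G43620, which resembled AT1G66920 most after AT5G11410, rose at 4 d from 3.26 ± 0.796 to 16.7 ± 1.87 CPM (2.35 ± 0.25, adjusted p = 3.5e-09). CHI rose at 24 h from 2.46 ± 0.895 to 37 ± 19.5 CPM (3.91 ± 0.61, adjusted p = 5.8e-06), and was lower at 7 d, with 14.8 ± 3.01 against 51.3 ± 43 CPM in controls (-1.80 ± 0.51, adjusted p = 0.013). The latter call was lost without control replicate 2 (-1.23, adjusted p = 0.14) or 3 (adjusted p = 0.054) or infested replicate 3 of that harvest (adjusted p = 0.051), and in its fit alone (adjusted p = 0.16).

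Kinases of the LRK10L and PR5K groups, a list that holds AT1G66910, the closest relative of AT1G66920 in sequence, rose at 30 min and were divided later. Of 11 tested, 7 and 4 were higher at 30 min and 24 h and 1 lower at 24 h, with list medians of 0.65 and 0.52. At 4 d 3 were higher and 3 lower, and at 7 d 1 was higher and 4 lower. The 3 higher at 4 d became 1 without control 4 d replicate 2 or 3 or infested 4 d replicate 2 or 4, and the 4 lower at 7 d became 2 without control or infested 7 d replicate 3. AT1G66910, the near copy of AT1G66920, rose at 30 min by 0.56 ± 0.1 (adjusted p = 3.8e-05) and was lower at 4 d, at 15.5 ± 2.04 against 19.8 ± 1.06 CPM (-0.35 ± 0.1, adjusted p = 0.0084), the harvest at which AT1G66920 differed most. AT1G66880 rose at 30 min and 24 h (0.65 ± 0.15 and 1.19 ± 0.15) and was lower at 7 d (-0.54 ± 0.14, adjusted p = 0.0083, and 0.054 without control 7 d replicate 3). AT4G18250 rose at 30 min and 7 d (2.12 ± 0.52 and 2.47 ± 0.58) on levels under 2 CPM, and AT5G38210 was higher at 30 min (0.80 ± 0.17) and lower at 7 d (-1.03 ± 0.16).

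Of the other phosphorylase superfamily genes and the vegetative storage proteins, anti-insect acid phosphatases of jasmonic acid signalling, 5 were tested. From 24 h to 7 d, 3 of the 5 were higher, AT4G24340, VSP1 and VSP2, with list medians of 2.37, 2.34 and 2.17. The medians at 24 h and 4 d were the values of VSP2. The phosphorylase superfamily genes MTN1 and AT4G34840 did not pass at 24 h (0.01 ± 0.06 and -0.09 ± 0.12) or 4 d (0.09 ± 0.06 and 0.05 ± 0.12). MTN1 was higher at 30 min (0.22 ± 0.06, adjusted p = 0.0028), and AT4G34840 was not (-0.16 ± 0.12). AT4G24340, which lies 120 bp from AT4G24350, rose from 0.781 ± 0.614 to 9.13 ± 3.83 CPM at 24 h (3.52 ± 0.53, adjusted p = 2.2e-06) and from 0.296 ± 0.328 to 7.23 ± 1.83 CPM at 4 d (4.55 ± 0.6, adjusted p = 3.3e-07). VSP1 rose at 4 d from 225 ± 263 to 3140 ± 275 CPM (3.80 ± 0.69, adjusted p = 8.1e-05) and VSP2 at 24 h from 930 ± 725 to 4820 ± 1060 CPM (2.37 ± 0.49, adjusted p = 0.00028). At 30 min VSP1 and VSP2 had log2 fold changes of -0.24 ± 0.62 and -0.37 ± 0.46 that did not pass. At 12 d their log2 fold changes were 0.16 ± 0.62 and 0.08 ± 0.46. VSP1 and VSP2 resemble each other closely, and their counts are uncertain for that reason.

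**Figure D5:**
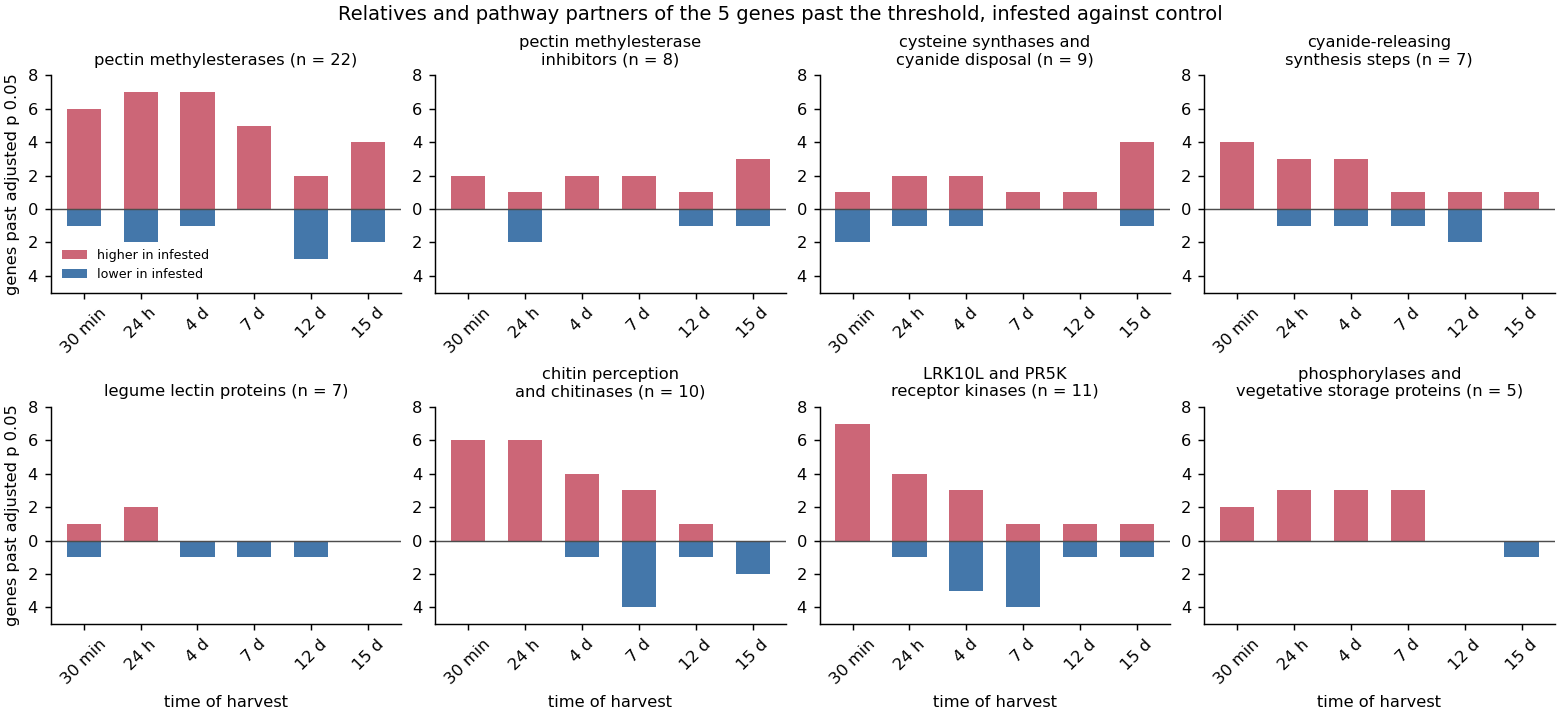
Each panel gives 1 list of relatives or pathway partners, with the number tested in brackets, the time of harvest on the x axis and the number of genes past an adjusted p of 0.05 on the y axis, higher in infested plants upward and lower downward from 0. Of 22 pectin methylesterases 7 are higher at 24 h and at 4 d, and of 11 LRK10L and PR5K kinases 7 are higher at 30 min.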

How the data were processed

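The authors deposited 1 table of raw read counts, with 33211 features in rows and the libraries in columns. The labels' protocols give total RNA, the NEBNext Ultra kit and paired reads of 150 bp. Per the submitters' processing notes, fastp, HISAT2, featureCounts and DESeq2 were used with TAIR10. For these tools, version, settings and strand option are not given in the sources at hand.

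The analysis of counts used edgeR (4.0.16) under R (4.3.3). Of the features 22252 passed filterByExpr, and scaling was by the trimmed mean of M values (TMM). One model with a coefficient for each of 12 groups was fitted to all 48 libraries (robust quasi-likelihood). The tests were two-sided quasi-likelihood F-tests with Benjamini-Hochberg adjustment over all genes of a contrast, and the threshold was an adjusted p of 0.05. Standard errors were the unshrunken log2 change divided by the square root of F. The step of a log2 fold change between harvests has no test, being built from the contrast that chose the genes. Library totals of 12.5 to 23.4 M set the depth, and of 72 replicate pairs 0 were identical. The scripts were tested on simulated data.

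The 5 genes and the lists of relatives were chosen with earlier results of these data known. From each list the text names up to 3 genes past the threshold at the most harvests, ties by size, and close relatives of the 5 genes. The values of 1 gene named by this rule are not reported here. A list gene was left out where its annotation does not name the family (RHS12, AT1G12010 and AT5G18610). AT1G66930 did not pass the low-count filter. Likeness is Pearson's r over 12 group means of log2 CPM (prior count 2), and the 3 highest are named. Symbols, exons and gene starts come from RefSeq's annotation of TAIR10.1, which matched 32548 features by locus name. Relatives in sequence were found with blastn between spliced transcripts.

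Alternatives were DESeq2's size factors, library totals alone, no low-count filter, DESeq2 1.42.0's Wald test, only the libraries of the 2 groups compared, replicate number as a term, and each library left out in turn.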

Additional observations from a re-analysis of the deposited data

Results flagged for a closer look

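Of 60 groups of 4 libraries (5 genes in 12 groups), 7 held a library that stood apart from the other 3 by more of the group's range than Dixon's 95% critical value for 4 samples, and chance gives about 1 in 20. PME3 was at 73.1 CPM in control 12 d replicate 4 (the others 96.6 to 98.3), at 230 CPM in infested 24 h replicate 1 (the others 198 to 202) and at 214 CPM in infested 4 d replicate 4 (the others 186 to 190). AT3G16530 was at 73.7 CPM in infested 24 h replicate 2, where the others held 25.3 to 33 CPM. CYSC1 was at 356 CPM in control 4 d replicate 4 (the others 327 to 329) and at 419 CPM in infested 7 d replicate 1 (the others 435 to 437). AT4G24350 was at 104 CPM in infested 30 min replicate 1 (the others 84.4 to 85). The infested library was the higher or the control library the lower in 5 of these 7 groups, and no library stood apart for more than 1 of the genes.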

How the results depend on the processing

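Under each of the 54 alternatives the infested level of the 5 genes was above the control level at every harvest that was refitted. The choice of the genes largely fixed this direction, so it is no support. A fit without 1 library covered only the harvest of that library. Of 34 calls with time among these genes, 30 held under every alternative. From 7 d to 12 d in controls 3 of the 5 genes were called with library totals alone and 3 with only the libraries of the groups compared, where AT3G16530 (adjusted p = 0.058) and AT1G66920 (0.051) were lost. The latter fit called 1 gene from 24 h to 4 d and 3 from 4 d to 7 d in infested plants. From 24 h to 4 d in controls DESeq2 called 1 gene. Leaving out single libraries gave 0 to 1 from 24 h to 4 d and 1 to 2 from 4 d to 7 d in controls. Replicate numbers were not treated as pairs. Correlations of same-numbered deviations ran from -0.5 to 0.38, with 12 of 72 over 0.1. In 0 of 18 comparisons were all over 0.1, a cut that cannot exclude pairing of some samples. With the replicate block 1 gene was called from 24 h to 4 d in controls, and the set of 5 met the rule. Fits of the compared groups alone changed the number of all genes called by over 1.5 times in 7 comparisons, to 1979 at 7 d (3059 in the fit of all libraries), 2042 at 12 d (3578) and 1148 at 15 d (4084) for infested against control, to 756 (2178) from 4 d to 7 d and 4177 (7656) from 12 d to 15 d in controls, and to 2910 (1247) from 24 h to 4 d and 1987 (1157) from 4 d to 7 d in infested plants. Leaving out a library lowered such counts as far, to 1997 and 2039 at 7 d (control replicates 2 and 3), 2381 at 12 d (control 4), 2451, 2483 and 2103 at 15 d (control 2 and 4, infested 2), 1433, 1104 and 1138 from 4 d to 7 d in controls (4 d replicate 3, 7 d replicates 2 and 3), and 658 to 827 from 24 h to 4 d in infested plants (24 h replicates 1 and 4, each at 4 d). Of 86 calls of named relatives, 60 held under every alternative. AT1G66920 and AT3G16530 had as few as 31 and 12 counts in a library, which limits their early and late values, in that order.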
